A study of Homo sapiens with 15 samples.

Results

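BMAL1 was mapped on chromatin of 786-O cells, and 473 of its 1812 peaks formed the set described here. They were chosen by 3 conditions. A peak of BMAL1 in control cells lay outside chromosome 19, shared no base with a HIF2α peak of the same cells, and overlapped by at least 1 bp a BMAL1 peak called after BMAL1 had been knocked down. Of the 1229 BMAL1-only peaks outside chromosome 19, these 473 were retained and 756 were lost. The share retained was 38.5% in this class and 38.7% over the whole list of 1812 peaks. With chromosome 19 included there were 625 retained BMAL1-only peaks.

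786-O is an established cell line derived from a clear cell renal carcinoma. Cells were transduced with lentivirus (pLKO.1) that carried a control shRNA, shControl, or one directed at BMAL1, shBMAL1, and were then selected with puromycin. Antibody-directed nuclease cleavage and sequencing (CUT&RUN) used antibodies to BMAL1 and to HIF2α, with 3 libraries for each antibody in shControl cells, 3 for HIF2α in shBMAL1 cells and 2 for BMAL1 in shBMAL1 cells. The labels call the libraries of a group biological replicates, whereas the study's reporting form calls them technical ones, and a BMAL1 library of shBMAL1 cells with few reads was left out by the authors. Each group was deposited as 1 pooled peak list, so no value below has an error between libraries, and the depth of a library cannot be read from these lists. Libraries of nonspecific IgG were not analysed here.

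BMAL1 pairs with CLOCK to form the activator of the circadian clock. The pair binds the E-box CACGTG and drives genes whose products, among them the PER and CRY repressors, the REV-ERB receptors and the PAR bZIP factors, feed back on the clock or carry its output. HIF2α, which 786-O cells accumulate because they lack VHL, pairs with ARNT and binds the hypoxia response element (HRE). GC boxes, bound by SP and KLF factors, and CCAAT boxes, bound by NF-Y, are common in promoters of broadly expressed genes.

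The 3 retained peaks at clock genes are shown first because their −log10 p after knockdown was lowest relative to that in control cells, as described below. Each line gives 30 bases to both sides of the E-box nearest to the summit that lies outside annotated exons, with CACGTG in capitals.

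TEF, chr22:41777723-41777788, plus strand: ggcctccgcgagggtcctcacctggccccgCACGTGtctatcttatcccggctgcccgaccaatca
PER3, chr1:7843951-7844016, plus strand: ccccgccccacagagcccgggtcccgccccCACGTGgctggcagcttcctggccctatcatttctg
NR1D1, chr17:38255662-38255727, plus strand: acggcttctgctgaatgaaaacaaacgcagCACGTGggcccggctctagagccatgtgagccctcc

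The peaks at CIART, a circadian repressor, and NR1D2, which encodes REV-ERBβ, were lost, and their E-boxes are shown for comparison.

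CIART, chr1:150254806-150254871, plus strand: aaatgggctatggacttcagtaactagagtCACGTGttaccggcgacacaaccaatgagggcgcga
NR1D2, chr3:23987477-23987542, plus strand: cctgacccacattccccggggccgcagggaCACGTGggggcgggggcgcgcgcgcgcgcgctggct

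The E-box lay 5 bp from the summit at CIART and 20 bp at NR1D2, and 76, 115 and 134 bp from it at TEF, PER3 and NR1D1. Not every lost clock peak had an E-box, as the lost peaks at the promoters of CRY1, CRY2 and NR1D1 held 0 copies in the peak.

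Some of the strong retained peaks lay in tandem repeats, and 4 examples are shown that were picked for a repeated word. TMEM87B, FARP2 and RAB22A were among the 10 strongest retained peaks, and GRSF1 stood at place 46 of the shControl list. At TMEM87B, FARP2, RAB22A and GRSF1 the summit stood in a tandem repeat, and each unit of the repeat carried the 8-letter word GGCGGGGC or its reverse complement GCCCCGCC, in capitals in these 120 bases.

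TMEM87B, chr2:112812469-112812588, plus strand: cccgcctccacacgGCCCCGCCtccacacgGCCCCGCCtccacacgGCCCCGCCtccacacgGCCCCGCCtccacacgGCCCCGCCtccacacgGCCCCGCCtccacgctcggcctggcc
FARP2, chr2:242295129-242295248, plus strand: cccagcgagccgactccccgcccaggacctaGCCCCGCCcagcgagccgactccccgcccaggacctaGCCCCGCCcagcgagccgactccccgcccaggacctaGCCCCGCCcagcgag
RAB22A, chr20:56884567-56884686, plus strand: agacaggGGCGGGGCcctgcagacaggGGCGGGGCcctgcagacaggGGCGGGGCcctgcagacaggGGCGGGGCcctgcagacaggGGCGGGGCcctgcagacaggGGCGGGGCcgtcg
GRSF1, chr4:71705814-71705933, plus strand: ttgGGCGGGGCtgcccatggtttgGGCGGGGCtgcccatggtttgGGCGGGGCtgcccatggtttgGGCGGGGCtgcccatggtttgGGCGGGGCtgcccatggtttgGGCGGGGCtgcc

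The repeat unit was 16 bp long at TMEM87B, 37 bp at FARP2, 20 bp at RAB22A and 21 bp at GRSF1. The word occurred 6 times in the 120 bases printed for TMEM87B, RAB22A and GRSF1, and 3 times in those for FARP2. None of the 4 windows within 100 bp of the summit held an E-box. Other strong peaks lacked the word, with 0 copies within 100 bp of the summit at ASMTL on X, BRD3OS, ESPNL and EEF2K.

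A last group has an E-box in GC-rich sequence. TTYH3 and SH2B3 were among the strongest retained peaks with an E-box, and the peaks named for ALG1L2 and FAM90A1 belong to a repeated sequence in which the same E-box recurs. Those 2 names are only of the nearest protein-coding start site, which lay 18143 bp from the ALG1L2 peak, while the FAM90A1 peak stood at −15829 bp. The E-box is in capitals.

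TTYH3, chr7:2671286-2671351, plus strand: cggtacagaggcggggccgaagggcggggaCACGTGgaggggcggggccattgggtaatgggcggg
SH2B3, chr12:111843438-111843503, plus strand: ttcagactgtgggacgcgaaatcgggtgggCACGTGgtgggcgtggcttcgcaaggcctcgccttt
ALG1L2, chr3:129830883-129830948, plus strand: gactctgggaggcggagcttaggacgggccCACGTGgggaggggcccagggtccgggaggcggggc
FAM90A1, chr12:8396109-8396174, plus strand: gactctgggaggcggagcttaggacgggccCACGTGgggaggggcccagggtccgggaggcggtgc

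Sequences were read from the GRCh37 assembly, whose coordinates are those of hg19.

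The strength of the retained peaks is described without a test, because retention follows from the calls in both lists. The fold enrichment at the summit over local background, as deposited, had a median of 10.9 in shControl cells (lowest 3.47, highest 58.7) and 11.8 in shBMAL1 cells (lowest 2.72, highest 78.0). Lost peaks had a median fold of 6.09 in shControl cells. Of the 473 retained peaks, 406 had a smaller p than the median peak of the shControl list. Their median width was 336 bp, against 193 bp for lost peaks. The summits of the 2 lists lay a median of 12 bp apart, and 392 of 473 pairs lay within 50 bp of each other.

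The ratio of the fold in shBMAL1 to the fold in shControl cells had a median of 1.14 over the 473 retained peaks, with a range from 0.225 to 3.28. In 310 of them (65.5%) the ratio was above 1. Each fold is scaled to the background of its own list and the lists have no common depth, so a ratio of 1 is not a level of no change. The paper, whose profiles were scaled to spike-in control DNA, describes a lower intensity of the BMAL1 peaks left after knockdown. The order of peaks by this ratio can still be read. The median ratio was 1.03 for the 36 retained peaks with an E-box within 100 bp of the summit and 1.15 for the 435 without.

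**Figure D1:**
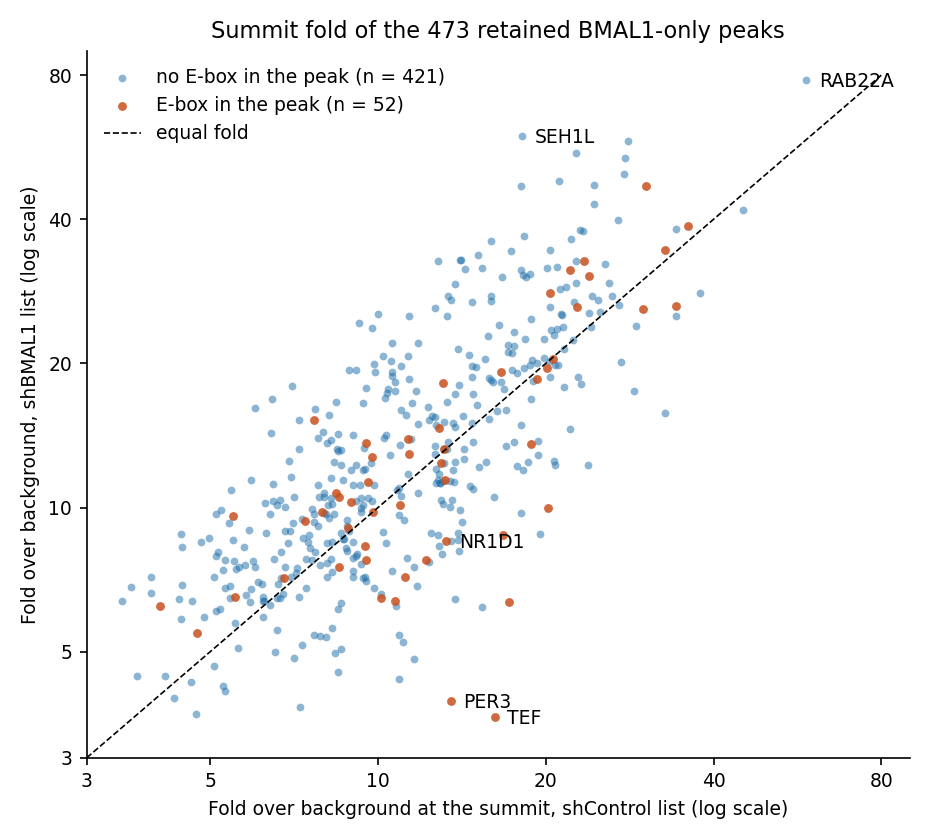
Fold enrichment at the summit of the 473 retained BMAL1-only peaks in the shControl list (horizontal, log scale) and in the shBMAL1 list (vertical, log scale). The peak at PHPT1, with a fold of 2.72 in the shBMAL1 list, is counted but falls below the range drawn. Orange points are the 52 peaks with an E-box anywhere in the peak, blue points the other 421, and the dashed line marks equal fold. TEF and PER3 lie farthest below the line, and SEH1L, with a ratio of 3.28, farthest above it.

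Clock genes stood at the low end of that order. At the promoter of TEF, a PAR bZIP factor of the clock output, the fold was 16.2 in shControl and 3.64 in shBMAL1 cells, a ratio of 0.225 and the lowest of all 473. At the promoter of PER3, a member of the PER family, it was 13.5 and 3.94, a ratio of 0.291 and the second lowest. By p, TEF stood at place 140 of 1812 in the shControl list and at place 753 of 768 in the shBMAL1 list, and PER3 at places 229 and 709. The third clock peak lay in an intron of NR1D1, which encodes the repressor REV-ERBα, and had folds of 13.3 and 8.49, a ratio of 0.641. By fold it was the 34th lowest ratio. By the ratio of −log10 p, a measure added after the folds were seen, the 3 clock peaks were the 3 lowest of the 473, at 0.0758 for TEF, 0.132 for NR1D1 and 0.151 for PER3, against a median of 0.736. Not all 473 could reach such values. Retention needs a shBMAL1 peak, and the lowest −log10 p of that list was 9.07, so a low ratio needs a strong shControl peak. In shControl cells −log10 p was 141 at TEF, 123 at NR1D1 and 88.1 at PER3, against a median of 53.7. In shBMAL1 cells it was 10.7, 16.3 and 13.3.

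Their E-boxes have been shown above. TEF had 3 E-boxes in its peak, NR1D1 had 3 and PER3 had 2. Among the 10 retained peaks with the lowest ratio of −log10 p, 6 held an E-box in the peak, against 52 of all 473. The other 3 of these 6 were at ZBTB24, AP5S1 and PLD6, the last with 3 E-boxes and folds of 12.2 and 7.79. These counts cover the whole peak and so depend on its width. The 6 peaks were 363 bp (PLD6) to 1368 bp (TEF) wide, against a median of 336 bp over all retained peaks. Within 100 bp of the summit only TEF, AP5S1 and PLD6 among the 10 held an E-box, against 36 of 471 retained peaks. The 10 were picked by their low ratio, so these counts are a description.

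The next lowest ratios of fold after TEF and PER3 were at the promoters of ZBTB24 (17.2 and 6.35), SP1, which encodes the factor that binds GC boxes (15.4 and 6.19), and XRCC6, which encodes the DNA repair protein Ku70 (10.9 and 4.39). The highest ratios were at SEH1L, a nuclear pore gene (18.2 and 59.6), MYEOV (6.02 and 16.1), HEBP1, a heme-binding protein gene (9.23 and 24.3), GTF2IRD2B (6.44 and 16.9) and SH3GLB2 (18.02 and 46.9). The peak named for GTF2IRD2B lay in an intron 12324 bp from the start site of that gene, in a duplicated sequence.

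Other clock peaks were not in the set. The BMAL1-only peaks at the promoters of CIART, CRY1, CRY2, NR1D1 and NR1D2 were lost, with shControl folds of 16.97, 10.98, 11.8, 11.4 and 10.6. The peaks at the PER1 and PER2 promoters were called in shBMAL1 cells, but overlapped a HIF2α peak in shControl cells. Their fold was 26.9 and 6.00 at PER1 and 13.4 and 3.91 at PER2, ratios of 0.223 and 0.292 that lie beside those of TEF and PER3. A locus that is not called may still hold signal below the threshold of the list.

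Over all protein-coding genes outside chromosome 19, 416 of 18656 (2.23%) had a retained BMAL1-only peak at a promoter. Among 25 clock genes there were 2, TEF and PER3, while 5 had a lost one, as did 518 of all 18656 genes. Of the genes with any BMAL1-only promoter peak, 2 of 7 clock genes and 416 of all 927 had a retained one. Of 266 zinc finger genes of the ZNF series 8 had a retained peak, led by ZNF7 (fold 21.3 and 25.4), with ZNF511 and ZNF438 behind it. ZNF511 shared its peak with the readthrough gene ZNF511-PRAP1. In a list of 17 driver genes of clear cell carcinoma, BAP1, a deubiquitinase gene (10.9 and 9.63), and CUL3, a ubiquitin ligase scaffold gene (5.55 and 5.74), had one. MXI1, which encodes a MYC antagonist, was the only retained gene among 35 hypoxia genes and among 20 bHLH-ZIP genes (13.9 and 8.54). Mitochondrial ribosomal protein genes had 2 of 74 (MRPL11 and MRPS28), splicing genes 2 of 53 (SNRPD3 and SF3B6), ribosomal protein genes 1 of 74 (RPL10), proteasome genes 1 of 48 (PSMG1) and lysosome genes 1 of 34 (NPC2). No retained promoter peak was found among 78 histone, 41 replication, 35 aminoacyl-tRNA synthetase and 18 AP-1 genes. These counts are small, and no list was tested.

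The 10 strongest retained peaks by shControl p were at ASMTL (a peak on X and one on Y, which are copies in the pseudoautosomal region), TMEM87B, DOP1B, FARP2, NSUN5, BRD3OS, ESPNL, EEF2K and RAB22A. The NSUN5 peak lay in an intron 69084 bp from the start site of NSUN5 and in sequence with copies elsewhere, and the EEF2K peak stood at −15308 bp, so both names mark only the nearest protein-coding start site. Folds ran from 14.7 at the NSUN5 peak to 58.7 at RAB22A, which encodes an endosomal GTPase. In shBMAL1 cells the same peaks had folds from 18.8 to 78.0, and FARP2, a guanine nucleotide exchange factor gene, had folds of 28.1 and 58.4. Ranked by the p of the shBMAL1 peak, IQUB and another peak named for GTF2IRD2B replaced BRD3OS and ESPNL among the 10, and the 2 ASMTL peaks led the whole shBMAL1 list. That GTF2IRD2B peak is not the one with a high ratio of fold. It lay in an intron 23933 bp from the start site, with folds of 18.2 and 30.6. The ASMTL window on Y consists of undetermined bases and was not scored for motifs.

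Repeated sequence was frequent among them. Within 400 bp centred on the summit, 44 of 471 retained peaks (9.34%, 95% Wilson interval 7.03% to 12.3%) held a tandem repeat, against 26 of 755 lost peaks (3.44%). A tandem repeat was counted where at least 80% of 100 successive bases equalled the base 1 unit earlier, for units of 8 to 60 bp. In windows of the same length around the start sites of 18660 protein-coding genes the share was 0.525%. More of the 44 retained peaks with a repeat lay outside promoters than at them, so this share is not a like background. Among the 10 strongest retained peaks 5 had one, and among the strongest 100 there were 19. Of the 44 retained peaks with a repeat, 18 carried GGCGGGGC within 100 bp of the summit. At CFAP410 (unit of 35 bp, fold 22.7 and 55.1), a cilium gene, and ESPNL (14 bp, 29.0 and 23.9) it did not. The measure was chosen after these sequences had been seen and was not tested.

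Copies elsewhere in the genome were a related feature. The 200 bp window of 36 of 473 retained peaks (7.61%) and 27 of 756 lost peaks (3.57%) aligned to another place with at least 90% identity over at least 80% of its length, or was the Y copy of a pseudoautosomal peak. Reads from such copies cannot be assigned to 1 place with certainty, so these peaks are uncertain as separate sites. They made up 13 of the 50 strongest retained peaks. The 7 with an E-box, among them those named for ALG1L2, ALDH3B2, FAM90A1 and ADRA2C, were 90.8% to 97.2% identical to each other over 301 to 396 aligned bases, so their E-boxes lie in related sequences. These peaks are named for the nearest protein-coding start site only, which for ALDH3B2 and ADRA2C put the peak at −124541 and 189405 bp.

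Most retained peaks lay at promoters, taken as 1000 bp upstream to 100 bp downstream of a start site of any annotated gene, protein-coding or not. This held for 388 of 473 retained peaks (82.0%, 78.3% to 85.2%) and for 472 of 756 lost peaks (62.4%, 58.9% to 65.8%), a difference of 19.6 percentage points (14.6 to 24.3) with an adjusted p of 4.47e-13. Unless another test is named, p-values come from Fisher's exact test, two-sided and with peaks as units, adjusted by the Benjamini-Hochberg method over 14 features. They compare peaks of pooled lists and not libraries, and all intervals cover counting error only. Within 5 groups of equal size by shControl p the difference was 11.9 points (Mantel-Haenszel test, n = 1229 peaks, p = 0.000925). Such groups match strength only coarsely. Over the 1226 peaks with a scored window, −log10 p ran from 53.3 to 861 in the strongest group. A further 60 retained peaks (12.7%) lay in introns and 17 (3.59%) between genes, against 158 (20.9%) and 103 (13.6%) of the lost ones. The median distance of promoter summits from the nearest start site was −110.5 bp in retained and −73 bp in lost peaks, where negative is upstream. Start sites on both strands were found at 104 of 388 retained promoters (26.8%) and 160 of 472 lost ones (33.9%). With protein-coding genes only, 354 of 473 retained peaks (74.8%) and 434 of 756 lost peaks (57.4%) lay at promoters.

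Retained peaks were also richer in G and C. The GC content within 100 bp of the summit had a median of 71.0% (46.0% to 84.5%), against 64.5% in lost peaks and 54.3% in the 74 retained peaks that overlapped HIF2α. It was above the median of all BMAL1-only peaks, 67.5%, in 306 of 471 retained peaks (65.0%) and 290 of 755 lost peaks (38.4%; difference 26.6 points, Fisher's exact test, adjusted p = 1.01e-18). Within the 5 groups by shControl p the GC difference was 10.7 points (Mantel-Haenszel test, n = 1226 peaks, p = 0.00746). CpG-dense windows, with an observed over expected CpG ratio above 0.6, were 77.9% of retained and 56.3% of lost peaks (difference 21.6 points, Fisher's exact test, adjusted p = 3.21e-14). Within the same groups the CpG difference was 15.2 points (Mantel-Haenszel test, n = 1226 peaks, p = 5.04e-05). Among promoter peaks alone the CpG difference was 0.699 points (Fisher's exact test, adjusted p = 0.914).

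**Figure D2:**
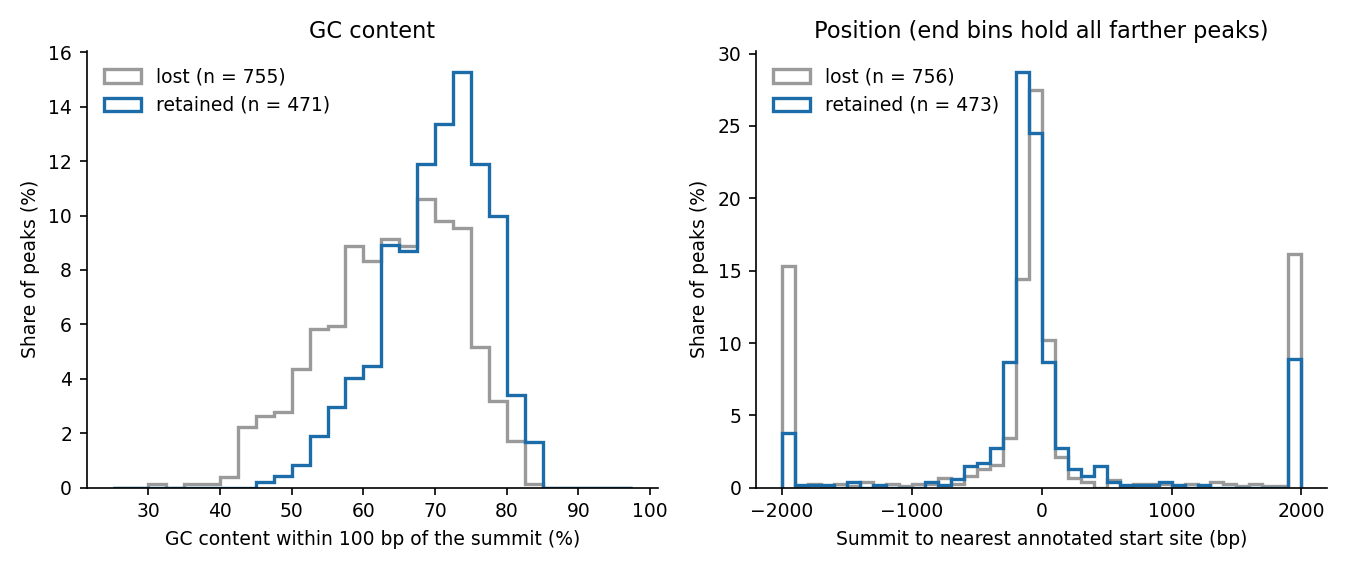
Left, share of peaks by GC content of the 200 bp around the summit for retained (blue) and lost (grey) BMAL1-only peaks. Right, share of peaks by the distance from the summit to the nearest annotated start site in bins of 100 bp, negative upstream, where the end bins hold all peaks farther away. Retained peaks have a median GC content of 71.0%, lost peaks of 64.5%, and both classes pile up just upstream of start sites.

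Motifs were counted on both strands in the 200 bp window. The E-box CACGTG was present in 36 of 471 retained peaks (7.64%, 5.57% to 10.4%) and in 138 of 755 lost peaks (18.3%, 15.7% to 21.2%). The difference was −10.6 points (−14.2 to −6.85), with an adjusted p of 2.12e-07. Of the 200 bp upstream of all protein-coding start sites 6.30% held an E-box, and of the windows 2000 bp to each side of the retained summits 3.61% did. Among promoter peaks alone the difference was −9.13 points, with an adjusted p of 0.000185 in Fisher's exact test, and without the repeated sequences it was −11.7 points (29 of 437 retained peaks, 134 of 729 lost peaks).

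The E-box difference was also present within groups of peaks by strength. Within the 5 groups by shControl p it was −14.7 points (Mantel-Haenszel test, n = 1226 peaks, p = 1.09e-06). In the second strongest group 9 of 41 peaks with an E-box were retained (22.0%), against 127 of 204 without one (62.3%). In the middle group the counts were 3 of 50 and 51 of 195. In the strongest group nearly all peaks were retained, 18 of 19 with and 219 of 226 without an E-box, and in the 2 weakest groups few were in either class.

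**Figure D3:**
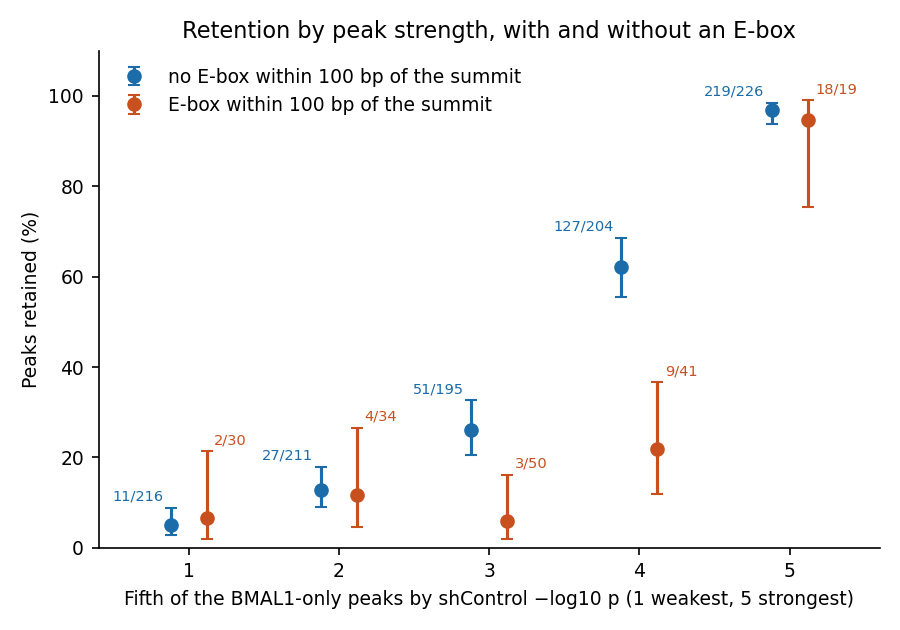
Share of BMAL1-only peaks retained (vertical) in 5 groups of equal size by shControl −log10 p (horizontal, 1 weakest), for peaks with (orange) and without (blue) an E-box within 100 bp of the summit. Bars are 95% Wilson intervals and the counts stand beside the points. The classes part in groups 3 and 4, at 6.00% against 26.2% and 22.0% against 62.3%, and meet in group 5.

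The place of the E-box differed as well, given here as a description. Where one was present within 100 bp, the nearest lay a median of 55 bp from the summit in retained and 39 bp in lost peaks, and within 50 bp in 14 of 36 and 87 of 138. Motifs of these lists leaned to the side of the lower coordinate. Of all copies of GGCGGGGC within 200 bp of a retained summit, 58.6% lay on that side, with a median offset of −33 bp. E-boxes of lost peaks leaned the same way, with 170 of 266 copies (63.9%) and −39 bp. In retained peaks 28 of 69 E-boxes (40.6%) lay on that side, with a median offset of 41 bp. With the window moved by 40 bp to the lower coordinate, 29 of 471 retained and 151 of 755 lost peaks held an E-box, a difference of −13.8 points. The move was chosen after the data were seen and follows the lean of the lost E-boxes. A wider difference was therefore built in, and no test is given.

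The related E′-box CACGTT was found in 13 of 471 retained peaks (2.76%) and 45 of 755 lost peaks (5.96%). It was not tested.

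**Figure D4:**
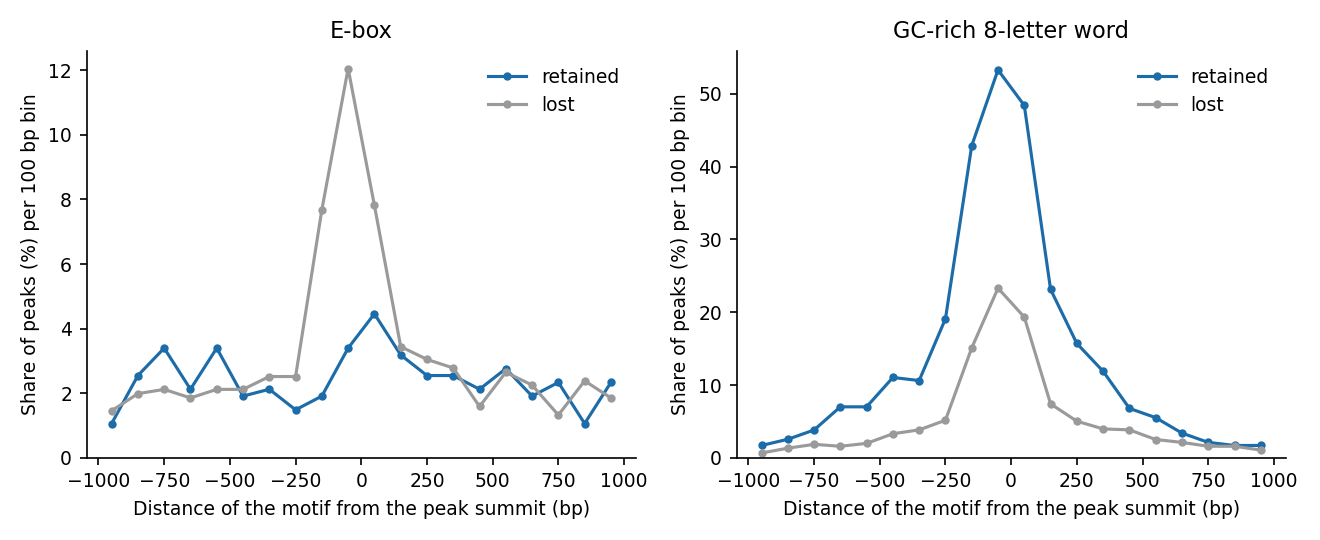
Share of retained (blue) and lost (grey) peaks with a copy of the motif in each 100 bp bin around the summit, from 1000 bp on the side of the lower to 1000 bp on the side of the higher coordinate. Left, the E-box, which reaches 4.46% in retained peaks beside the summit and remains between 1.06% and 3.40% in all other bins. Right, the GC-rich 8-letter word, which reaches 53.3% in retained peaks.

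GC boxes (GGGCGG) were more frequent in retained than in lost peaks. They were present in 394 of 471 (83.7%, 80.04% to 86.7%), against 427 of 755 lost peaks (56.6%, 53.0% to 60.1%), a difference of 27.1 points (22.1 to 31.8) and an adjusted p of 1.29e-22. The share upstream of all protein-coding start sites was 46.0%, and in the flanks of the retained peaks 9.02%. Among promoter peaks they were common in both classes (353 of 386 retained, 374 of 472 lost), a difference of 12.2 points. Outside promoters the difference was 29.5 points (41 of 85 retained, 53 of 283 lost). Within groups of equal peak strength it was 14.1 points (Mantel-Haenszel test, n = 1226 peaks, p = 9.21e-05), and within groups of equal GC content 9.65 points (p = 1.3e-05).

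When all 8-letter words were ranked by their share in retained minus lost peaks, GGCGGGGC came first. It was present in 316 of 471 retained peaks (67.1%) and 249 of 755 lost peaks (33.0%). Copies numbered 2 or more in 44.2% and 15.2%. It was found in 1.17% of the flanks of retained peaks and in 19.7% of all protein-coding promoters. At promoters the shares were 73.8% retained and 47.9% lost, and outside promoters 36.5% and 8.13%. The nearest copy lay a median of 25 bp from the retained summit, and within 50 bp in 242 of 316. The word was picked because it differed, so no test is given. Of the retained peaks, 293 had the word and no E-box, 23 had both, 13 had an E-box alone and 142 had neither. Among lost peaks with an E-box, 30 had the word. The 74 retained peaks that overlapped HIF2α had the word in 25.7% and an E-box in 5.41%.

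At the other end of the ranking were CACGTGAC, an E-box with its flank (1.27% of retained and 7.02% of lost peaks), GTGACTCA and CTGAGTCA, which contain an AP-1 site (1.49% against 7.02% and 0.849% against 5.96%), CCACGTGA (1.49% against 5.56%) and ATTGGCTG, which contains a CCAAT box in reverse (1.91% against 5.96%). The motifs these words hold were among the 14 features tested. Words and motifs were counted in the same windows, so a like direction adds nothing to the ranking. AP-1 sites (TGACTCA or TGAGTCA) were found in 20 of 471 retained peaks (4.25%) and 119 of 755 lost peaks (15.8%), a difference of −11.5 points (−14.7 to −8.23; Fisher's exact test, adjusted p = 2e-10). Within the 5 groups by shControl p the AP-1 difference was −4.74 points (Mantel-Haenszel test, n = 1226 peaks, p = 0.0546). CCAAT boxes were found in 110 of 471 (23.4%) and 278 of 755 (36.8%), a difference of −13.5 points (−18.5 to −8.22, Fisher's exact test, adjusted p = 1.58e-06). Within the groups by shControl p it was −10.9 points (Mantel-Haenszel test, n = 1226 peaks, p = 0.00516). Among peaks outside promoters alone the CCAAT difference was −10.02 points and did not pass Fisher's exact test (adjusted p = 0.0657).

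The HRE core, ACGTG or GCGTG, was present in 266 of 471 retained peaks (56.5%) and 449 of 755 lost peaks (59.5%). The difference of −2.99 points (−8.67 to 2.66) did not pass Fisher's exact test (adjusted p = 0.397). It was −12.0 points within the 5 groups by shControl p (Mantel-Haenszel test, n = 1226 peaks, p = 0.00271). Every E-box contains ACGTG, and with E-box windows left out the ungrouped difference was 2.47 points (Fisher's exact test, adjusted p = 0.528). That value compares with the −2.99 points only, as no grouped difference without E-box windows was computed.

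The rarer motifs did not pass the test. The ETS site CCGGAAG was present in 8.07% of retained and 6.89% of lost peaks (Fisher's exact test, adjusted p = 0.506), the NRF1 site GCGCATGC in 2.55% and 2.78% (adjusted p = 0.924) and the YY1 site AAGATGGC in 7 of 471 and 3 of 755 (adjusted p = 0.0891). The CRE TGACGTCA was found in 2 retained and 10 lost peaks (Fisher's exact test, adjusted p = 0.225), and the Kaiso site TCTCGCGA in 0 retained peaks and 1 lost peak (adjusted p = 1.0). The shares of these motifs in all protein-coding promoters were 7.78%, 2.76%, 1.09%, 1.75% and 1.18%.

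**Figure D5:**
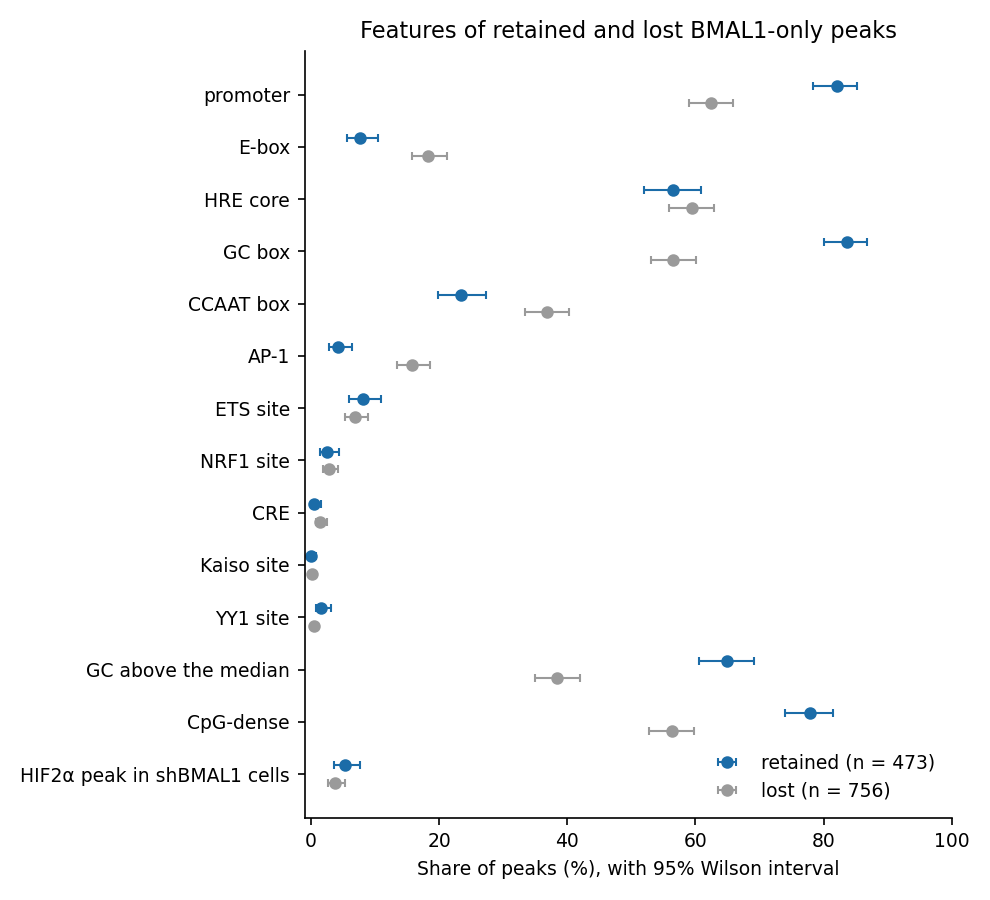
Share of retained (blue) and lost (grey) BMAL1-only peaks with each of the 14 features tested, in percent, with 95% Wilson intervals (sequence features over 471 and 755 peaks). Promoter position, GC box, high GC content and CpG density lie higher in retained peaks, and E-box, CCAAT box and AP-1 site lie lower, while the other 7 features did not pass the test.

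A HIF2α peak called in shBMAL1 cells overlapped 25 of 473 retained peaks (5.29%, 3.61% to 7.69%) and 28 of 756 lost peaks (3.70%, 2.57% to 5.30%). The difference of 1.58 points (−0.736 to 4.23) did not pass Fisher's exact test (adjusted p = 0.274). Over all shControl BMAL1 peaks, which include those that already overlapped HIF2α, the share was 14.5%. Over the 25 retained peaks the HIF2α fold had a median of 5.05 (2.70 to 10.5), and the place by p in the list of 1089 HIF2α peaks had a median of 852 and ran from 267 to 1088. The highest fold, 10.5 at place 279, was at a peak named for TRIO. The median fold of that whole list was 7.40. The strongest of the 25 BMAL1 peaks were at DOP1B, FARP2, SPAG4, RELL1 and CORO1C, with HIF2α folds from 3.01 at DOP1B to 4.76 at RELL1 and places from 588 to 1054. SPAG4 was also the retained peak closest to a HIF2α peak of shControl cells, at 503 bp.

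By overlap, few peaks lay near the edge of the selection. By the shBMAL1 call some lay close to it, as their −log10 p in that list went down to 9.45 and the lowest of the list was 9.07. The smallest overlaps with a shBMAL1 peak were 23 bp at SDHA, in a duplicated tandem repeat, 55 bp at PLEC and 90 bp at BIN1. The lost peaks closest to a shBMAL1 peak, at TEDC1, PPP2R5C and ADCK5, were 504, 508 and 682 bp away. Requiring an overlap of 50% of the shorter peak left 471 retained peaks.

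By chromosome, retention among BMAL1-only peaks ran highest on chromosome 20, with 30 of 47 peaks, and was 52 of 112 on chromosome 16 and 12 of 48 on chromosome 6. These counts were not tested.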

How the data were processed

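CUT&RUN peak lists of 786-O cells were used, 1 per group and pooled by the authors over its libraries. Paired reads were aligned by the authors to hg19 with Bowtie2, duplicates were removed, peaks were called with MACS2 and blacklisted regions were removed. The submitters' processing notes name Bowtie2 2.5.3, SAMtools 1.6, MACS2 2.2.9.1 and bedtools 2.31.1. The deposited lists give for each peak a fold enrichment (a ratio over local background), a −log10 p, a −log10 q and a score derived from q. The q and the score were not used. Whether IgG served as the control is not given in the sources used here.

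Peaks were placed by their midpoint on GENCODE 44 for GRCh37 and named for the protein-coding gene whose promoter held them, otherwise for the nearest start site. Sequence windows held 200 bp around the summit, and those with undetermined bases were left out (2 retained peaks and 1 lost peak). Copies were found with minimap2 2.31-r1302. Tests ran in Python 3.11.15 with scipy 1.17.1 and statsmodels 0.14.6 and were checked on simulated data. The retained peaks, gene lists and tests were chosen with earlier results of these data known. Named were all retained peaks at clock genes, the 10 strongest in each list, up to 4 genes per gene list, the 5 highest and lowest fold ratios, the 5 strongest with a HIF2α peak in shBMAL1 cells and the 6 strongest with an E-box. CFAP410, GRSF1, AP5S1, PLD6 and the lost peaks were named after their values were seen. Alternatives covered overlap, peak strength, window, promoter width and chromosomes. The word GGCGGGGC, the E′-box, tandem repeats, sequence copies, the ratio of −log10 p and the moved window were added after the data were seen.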

Additional observations from a re-analysis of the deposited data

How the results depend on the processing

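The 14 differences between retained and lost peaks and the number of retained peaks were recomputed in 173 alternatives, of which 28 were chosen after seeing the data. In 158 the result was counted as unchanged. For the 14 differences this means the same direction and the same side of the 0.05 threshold. For the number of retained peaks, which has neither, it means a count not far from 473, and the counts ran from 420 to 625. The 158 include every alternative for promoter, E-box, GC box and high GC content. One of those for the E-box is the window moved by 40 bp, where a wider difference was built in. Within the 5 groups by shControl p the HRE core difference became −12.0 points (Mantel-Haenszel test, n = 1226 peaks, adjusted p = 0.00759), that of AP-1 −4.74 (adjusted p = 0.0956) and that of the ETS site −0.246. Among peaks with a −log10 p of at least 20 the HRE core gave −12.1 and the ETS site −0.114. Within 5 groups by GC content the HRE core gave −7.03, and over ungrouped peaks with E-box windows left out 2.47. With chromosome 19 the ETS site gave −0.426. Among promoter peaks alone it gave −0.584 and CpG density 0.699. Among peaks outside promoters the CCAAT box gave −10.0 (Fisher's exact test, adjusted p = 0.0657), the ETS site −0.237 and the CRE 0.823. A 400 bp window gave −1.88 for the CRE (Fisher's exact test, adjusted p = 0.0259), and the window moved by 40 bp gave −0.0253 for the YY1 site. The causes were not tested. The Kaiso site in 100 bp windows and outside promoters, and the YY1 site outside promoters, occurred in neither class and gave no value.

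No paired analysis was possible because each list is pooled over its libraries and carries no replicate number. Leaving out single libraries was not possible for the same reason. The units are peaks, and peaks that share a promoter or a repeated sequence are not independent. The shBMAL1 list comes from fewer libraries and holds fewer peaks, so lower depth and loss of binding cannot be told apart at a single lost peak.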
